A study of Mus musculus with 31 samples.

Results

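*Saa1* separated the mammary glands of 31 lactating mice into 11 with 10 or more raw CPM, its read count scaled to the size of the library, and 20 below that limit. The classes were chosen by the measured level of this gene alone, as its counts divided by the total counts of the library and multiplied by 1e6, and every dam of the series was used. All other genes were then compared between the high and the low class with the 4 diet and drug groups in the model. Because the classes come from a readout of the same libraries and were not assigned, each difference is an association among dams. *Saa1* itself was not tested.

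The glands came from C57BL/6J dams on lactation day 10, which had received a breeder diet with 4 mg/kg folic acid (FA) or an FA diet with 24 mg/kg from 2 weeks before mating. From embryonic day 13 on they were injected each day with saline or with 20 mg/kg fluoxetine, a selective serotonin reuptake inhibitor. By the labels, 8 dams were breeder diet + saline, 7 breeder diet + fluoxetine, 8 FA diet + saline and 8 FA diet + fluoxetine, with 1 library of polyadenylated RNA for each dam. Breeding began at 6 weeks of age, and all dams are of 1 inbred strain and 1 time point.

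Serum amyloid A proteins are small apolipoproteins of the acute-phase response, which inflammatory cytokines of the interleukin-6 and interleukin-1 families switch on through STAT3, C/EBP and NF-kB factors. *Saa1* and *Saa2* are made mainly in the liver, while *Saa3* is made in many tissues, including the mammary epithelium, where its product is secreted into milk and rises in mastitis. A gland that is filled, inflamed or regressing also changes its milk protein genes, its secreted defence proteins and its immune cells, and those groups were therefore followed beside the serum amyloids.

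The mouse serum amyloid genes lie close together on chromosome 7. In GRCm39 *Saa3* is at chr7:46361422-46365576, *Saa4* at chr7:46377406-46382035, *Saa1* at chr7:46389916-46392547 and *Saa2* at chr7:46401214-46403737. *Saa2* is on the plus strand and the others are on the minus strand. The promoters of *Saa1*, *Saa2* and *Saa3* are shown because *Saa1* defined the classes and the other 2 genes followed it in the gradient described further on. The sequences are those of RefSeq on GRCm38.p6, from 250 bases before to 50 bases after the start of the gene, 5′ to 3′ on the strand of the gene. Capitals mark matches, on either strand, to the NF-kB pattern GGGNNNNNCC, the C/EBP pattern TTGCNNAA and the STAT pattern TTCNNNGAA, of which none overlaps another. The *Saa1* promoter lies at chr7:46742931-46743230, that of *Saa2* at chr7:46751583-46751882 and that of *Saa3* at chr7:46715627-46715926.
Saa1: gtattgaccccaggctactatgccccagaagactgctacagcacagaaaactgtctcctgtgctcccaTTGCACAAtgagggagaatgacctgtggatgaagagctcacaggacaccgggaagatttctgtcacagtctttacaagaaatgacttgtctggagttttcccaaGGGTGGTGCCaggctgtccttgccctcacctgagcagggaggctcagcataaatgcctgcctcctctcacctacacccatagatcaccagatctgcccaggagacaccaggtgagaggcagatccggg
Saa2: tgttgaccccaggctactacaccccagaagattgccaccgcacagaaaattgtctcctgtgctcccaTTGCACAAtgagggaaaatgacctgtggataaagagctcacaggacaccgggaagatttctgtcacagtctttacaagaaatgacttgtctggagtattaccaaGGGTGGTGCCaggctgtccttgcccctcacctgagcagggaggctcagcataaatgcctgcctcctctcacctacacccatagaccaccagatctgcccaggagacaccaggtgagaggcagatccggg
Saa3: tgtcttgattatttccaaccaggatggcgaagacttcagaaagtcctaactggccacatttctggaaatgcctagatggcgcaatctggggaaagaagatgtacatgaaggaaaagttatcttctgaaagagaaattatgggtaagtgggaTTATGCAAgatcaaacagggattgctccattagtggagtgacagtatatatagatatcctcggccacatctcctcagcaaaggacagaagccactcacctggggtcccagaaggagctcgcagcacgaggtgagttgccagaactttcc
The *Saa1* and *Saa2* promoters were identical at 287 of 301 aligned positions, or 95.4%, whereas *Saa1* and *Saa3* shared 51.3%. Both *Saa1* and *Saa2* held the same NF-kB match GGGTGGTGCC and the same C/EBP match TTGCACAA, and *Saa3* held 1 C/EBP match, TTATGCAA. None of these windows held the STAT pattern. Among all 32851 promoters of the RefSeq table, 50.8% held the NF-kB pattern, 10.8% the C/EBP pattern and 8.3% the STAT pattern, so that a match is common and only describes the letters. The canonical transcripts of *Saa1* and *Saa2* were 80.9% identical in alignment, with a longest shared run of 76 bases, and *Saa1* and *Saa3* shared a run of 58 bases. Reads that lie wholly within such runs cannot be assigned to 1 gene with certainty. By the lengths the paper gives, a full-length read is longer than these runs also after clipping, so this concerns reads trimmed further.

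*Saa1* ranged from 0.554 to 969 raw CPM over all dams, with the widest ranges in the fluoxetine groups. In the high class the lowest dam had 12.3, the median was 47.3 and the highest 969 raw CPM, and in the low class these values were 0.554, 1.89 and 7.78. The dam just inside the limit was breeder diet + saline dam 6 with 12.3 raw CPM from 275 reads, and the dam just below it was FA diet + fluoxetine dam 6 with 7.78 raw CPM from 239 reads. Even the lowest dam had 12 reads of *Saa1*, and there was no empty zone between the classes.

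**Figure D1:**
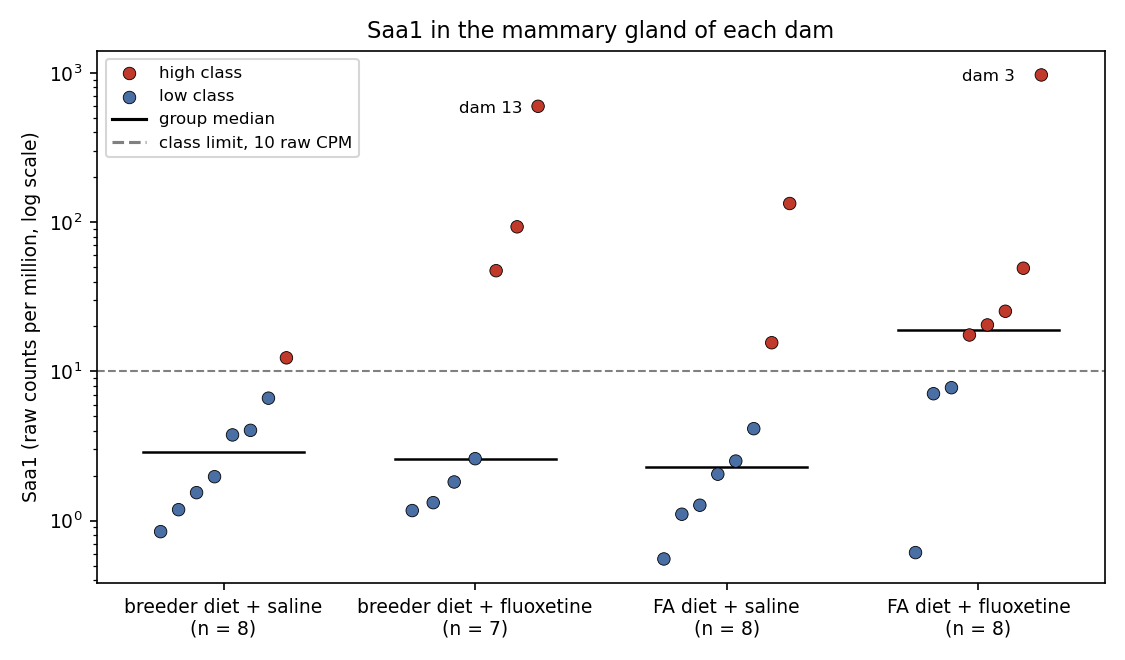
*Saa1* in raw CPM on a log scale in each of 31 dams, by diet and drug, with red points for the high class, blue points for the low class, black lines for group medians and a dashed line at the class limit of 10 raw CPM. FA diet + fluoxetine dam 3 (969 raw CPM) and breeder diet + fluoxetine dam 13 (597 raw CPM) lie far above the other dams, the next of which has 133 raw CPM.

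High dams were found in all 4 groups. Of the FA diet + fluoxetine dams, 5 of 8 were high, with 17.5, 20.5, 25.3, 49.1 and 969 raw CPM. Of the breeder diet + fluoxetine dams, 3 of 7 were high, with 47.3, 93.1 and 597 raw CPM. Of the FA diet + saline dams, 2 of 8 were high, with 15.6 and 133 raw CPM, and of the breeder diet + saline dams 1 of 8, with 12.3 raw CPM. In all, 8 of 15 fluoxetine dams and 3 of 16 saline dams were in the high class, which is why the groups were kept in the model.

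A few milk transcripts held most of the reads. Total counts ranged from 17279592 to 25045059 in the high class and from 15412542 to 36000439 in the low class. The 20 most abundant genes took 39.3% to 80.4% of the counts in the high class, median 75.0%, and 73.3% to 81.0% in the low class, median 78.0%. The lowest share, 39.3%, was that of FA diet + fluoxetine dam 3, followed by 60.5% in breeder diet + fluoxetine dam 13, so that the dams with the most *Saa1* were also those with the least of the dominant transcripts. Dam 3 needed a normalization factor of 3.04 against a lowest factor of 0.716, and the class comparison and the gradient were therefore also fitted without it. Levels below are CPM after TMM normalization unless raw CPM is stated, and a lower level in such bulk tissue can mean fewer cells of a type or less RNA per cell, which cannot be told apart.

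Only *Saa2*, *Spp1* and *Ldhb* differed between the classes, all of them higher in high-*Saa1* dams. These were 3 of 14361 genes tested (0.0209%) by edgeR's quasi-likelihood test at a Benjamini-Hochberg FDR of 10%, and 0 genes (0%) were lower. At an unadjusted p under 0.05 there were 785 genes, 438 higher and 347 lower, where 5% of the genes tested would be 718. Without dam 3 the same 3 genes were called higher out of 14246 (0.0211%) and 0 lower (0%). DESeq2 called 4 genes higher and limma voom 4, with none lower. A common difference beyond these genes was thus not detected between the classes.

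*Saa2* encodes the acute-phase serum amyloid nearest to *Saa1*. In the high class its lowest level was 2.82, its median 16.3 and its highest 307 CPM, and in the low class 0, 0.620 and 3.36 CPM. Of the 11 high dams, 10 lay above every low dam. The log2 fold change of high against low was 5.86 (SE 0.79), with an adjusted p of 9.78e-04 by edgeR's quasi-likelihood test. It was 4.85 without dam 3 and 4.42 without the 3 dams at 100 raw CPM of *Saa1* or above. The call was lost with a limit of 20 raw CPM (5.94), within fluoxetine or saline dams alone, and with a replicate block (3.90). Since short reads within the shared runs may have been counted for either gene, this value cannot be taken as independent of the gene that set the classes. The number of *Saa2* reads per *Saa1* read still varied among high dams, from 0.124 to 1.08 with a median of 0.505.

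*Spp1* encodes osteopontin, a secreted phosphoprotein of milk that the mammary epithelium and macrophages make and that binds integrins and calcium. Its level ran from 106 over a median of 442 to 5851 CPM in the high class, and from 13.7 over 75.5 to 355 CPM in the low class. All 11 high dams lay above the median of the low dams and 8 of them above every low dam, so the classes overlapped in 3. The highest levels were 5851 CPM in breeder diet + fluoxetine dam 13, 2542 in FA diet + saline dam 3, 1585 in FA diet + fluoxetine dam 3 and 1470 in FA diet + fluoxetine dam 4, the last of which had 17.5 raw CPM of *Saa1*. The log2 fold change was 3.40 (SE 0.56, adjusted p = 0.0142, edgeR), and 3.33 without FA diet + fluoxetine dam 3. The call was lost without FA diet + saline dam 3 (log2 2.82, adjusted p = 0.210) and without the 3 dams at 100 raw CPM or above (1.95, adjusted p = 0.908).

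*Ldhb* encodes the heart-type subunit of lactate dehydrogenase, which favours the turnover of lactate to pyruvate. It spanned 8.03 to 22.3 CPM with a median of 12.01 in the high class, and 4.23 to 14.5 CPM with a median of 8.01 in the low class. Every high dam was above the low median, but only 4 were above all low dams. The log2 fold change was 0.82 (SE 0.16, adjusted p = 0.0888, edgeR), close to the threshold, and of 31 fits that each left out 1 dam only 7 kept the call. Dam 3 had 11.3 CPM, and without it the log2 fold change was 0.83 (adjusted p = 0.0675).

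*Saa3*, the serum amyloid of the mammary epithelium and other tissues outside the liver, did not pass the test between the classes. It spanned 1.81 to 50.8 CPM with a median of 11.8 in the high class and 0 to 10.9 CPM with a median of 1.17 in the low class, a log2 difference of 2.42 (SE 0.57, adjusted p = 0.721, edgeR). All 11 high dams were above the low median and 6 above every low dam. The low dam with the most *Saa3*, FA diet + fluoxetine dam 10 with 10.9 CPM, had 7.09 raw CPM of *Saa1*, just under the limit, and with a limit of 5 raw CPM *Saa3* was called with a log2 difference of 3.22. *Saa4*, the constitutive member of the family, had 0 counts in all 31 libraries.

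**Figure D2:**
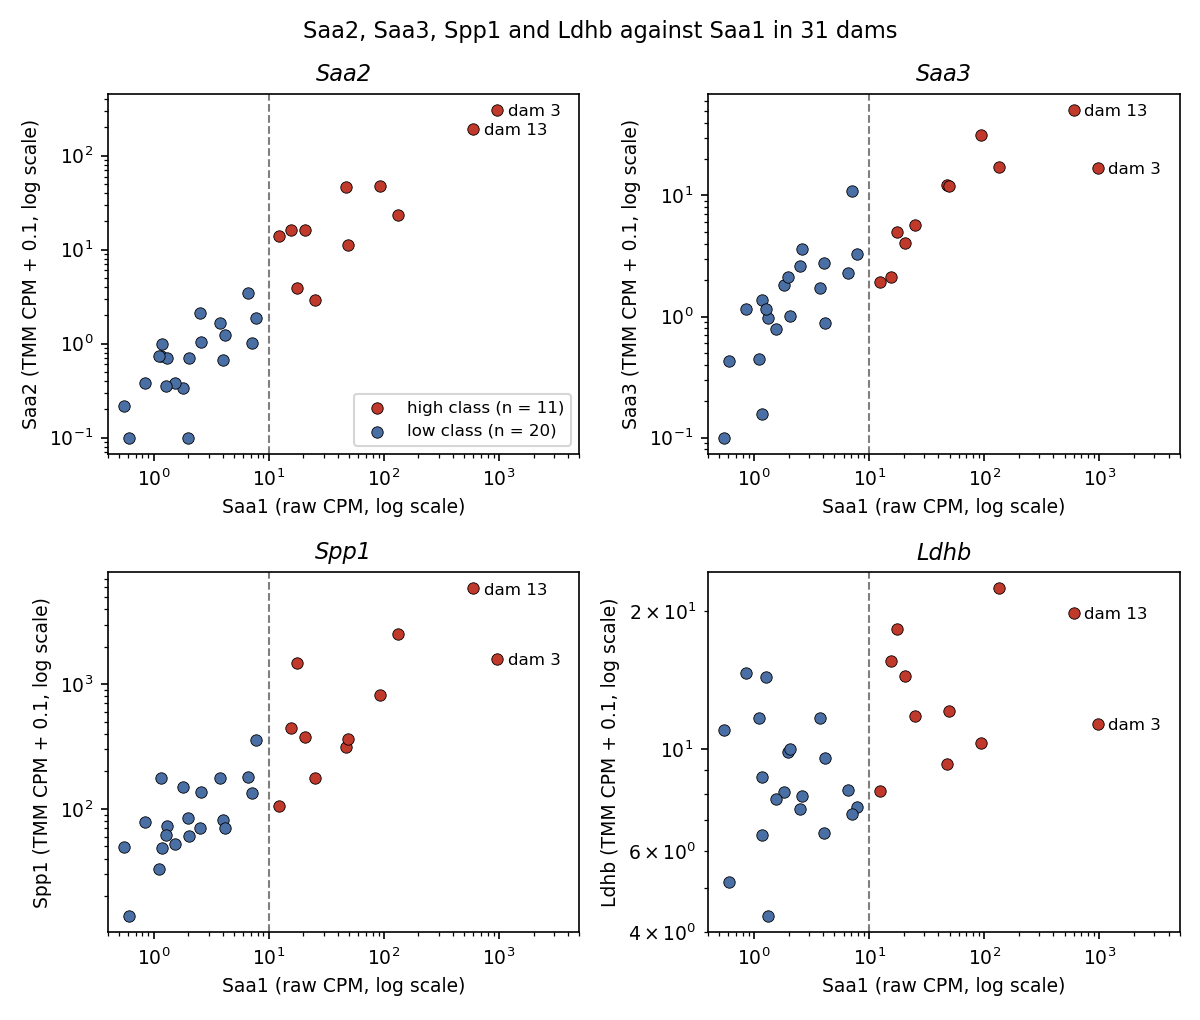
Normalized CPM of *Saa2*, *Saa3*, *Spp1* and *Ldhb*, each plus 0.1, against raw CPM of *Saa1*, both on log scales, with 1 point per dam, red for 11 high and blue for 20 low dams, and a dashed line at 10 raw CPM. *Saa3* and *Spp1* climb across the limit without a break and have their top values, 50.8 and 5851 CPM, in dam 13, whereas *Ldhb* spreads over 4.23 to 22.3 CPM.

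With the level of *Saa1* itself in the model, as log2 of raw CPM plus 0.5, far more genes were called, and most of those calls rested on 1 dam. Along this gradient 463 genes rose (3.22%) and 145 fell (1.01%) with *Saa1* over 31 dams. Without FA diet + fluoxetine dam 3, 18 genes rose (0.126%) and 4 fell (0.0281%). When breeder diet + fluoxetine dam 13 was left out as well, 3 rose (0.0208%) and 0 fell (0%), with 607 of 14400 genes at an unadjusted p under 0.05, 347 higher and 260 lower. The fits of the gradient without dam 3 and without both dams were chosen after the data were seen. So was the class fit without the 3 dams at 100 raw CPM of *Saa1* or above.

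**Figure D3:**
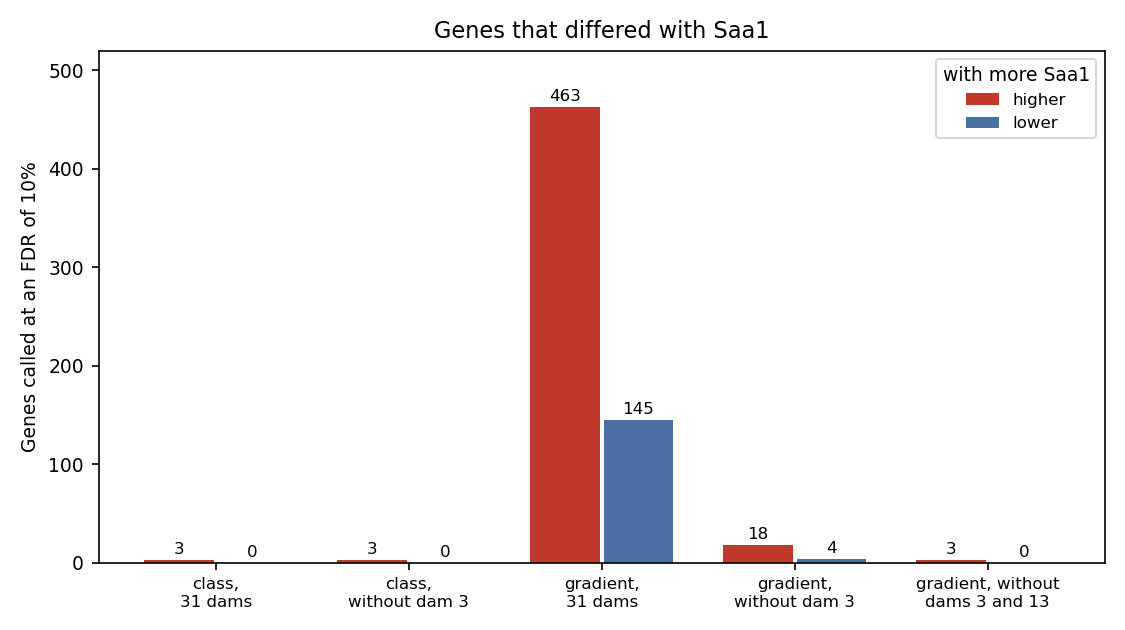
Number of genes called at an FDR of 10% as higher (red) or lower (blue) with more *Saa1*, between the classes and along the gradient, with all dams and without the dams of highest *Saa1*. The gradient gives 463 and 145 genes over 31 dams, 18 and 4 without dam 3, and 3 and 0 without dams 3 and 13.

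*Saa2*, *Saa3* and *Spp1* were the 3 genes that rose along the gradient in the absence of both dams. Per doubling of *Saa1*, *Saa2* rose by 1.29 (SE 0.12, adjusted p = 7.61e-07), *Spp1* by 0.72 (SE 0.09, adjusted p = 3.14e-04) and *Saa3* by 0.70 (SE 0.09, adjusted p = 6.09e-05) on the log2 scale in edgeR's quasi-likelihood test of 29 dams. Over all 31 dams these slopes were 1.15, 0.67 and 0.61. The slopes of *Saa3* and *Spp1* were below 1, and that of *Saa2* was above 1 in each of these fits.

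Of the 608 genes called along the gradient, 604 could be tested without dam 3 and 587 of these had the same sign. Both fits share all other dams, so this agreement was largely built in. In the fit without dam 3, 18 of the 608 were called in the same direction, 14 higher and 4 lower. These 18 were picked out after their values were seen. Beside *Saa2*, *Saa3*, *Spp1* and *Ldhb*, the genes that rose were *Ltf*, *Orm2*, *Slpi*, *Rnase1*, *Wfdc17*, *Wfdc12*, *Sbsn*, *Scml4*, *Agpat4* and *Ly6a*, and those that fell were *Csn1s2b*, *Itprid1*, *Mapk4* and *Serpina11*. None of these 14 was called in the absence of both dams.

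Several of these genes encode secreted defence proteins, and their highest level was in breeder diet + fluoxetine dam 13. *Slpi*, which encodes an inhibitor of neutrophil elastase, was 324 CPM in that dam and 0.840 to 23.9 CPM in the 29 dams other than dams 3 and 13. *Wfdc17*, a related protein with a whey acidic protein domain, was 506 CPM there against 2.78 to 55.2 CPM in those 29 dams. *Orm2*, the acute-phase plasma protein orosomucoid 2, was 376 CPM against 2.75 to 85.1 CPM. In FA diet + fluoxetine dam 3, which had more *Saa1* than dam 13 on the raw scale and less after normalization (320 against 382 CPM), *Slpi* was 5.38, *Wfdc17* 14.5 and *Orm2* 2.99 CPM, all within the range of those 29 dams. *Rnase1*, a secreted ribonuclease, was 73.0 CPM in dam 13, at 0 in dam 3 and at most 3.52 CPM in the others.

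*Ltf*, lactoferrin, the iron-binding antimicrobial protein of milk, rose by 0.17 on the log2 scale per doubling of *Saa1* without dam 3 (SE 0.03, adjusted p = 0.00399, edgeR). It was 2530 CPM in dam 13, 332 CPM in dam 3 and 425 to 1061 CPM in the other 29. *Lcn2*, the siderophore-binding lipocalin 2, was 1788 CPM in dam 13, above all other dams, and 235 CPM in dam 3, below all others, but it was not called in the gradient (adjusted p = 0.280, edgeR). On the raw scale *Lcn2* in dam 3 was 710 CPM, within the 212 to 819 raw CPM of the 29 dams, so its low place there depends on the normalization. The same holds for *Ltf*, with 1004 raw CPM in dam 3 against 371 to 1324.

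Of the genes that fell, *Csn1s2b*, a calcium-binding casein of milk, spanned 3364 to 68692 CPM with a median of 45705 in the high class and 45674 to 85200 CPM with a median of 59448 in the low class. It was lowest in dam 3 with 3364 CPM, followed by dam 13 with 20410 and FA diet + saline dam 3 with 31640 CPM, so the 3 dams with the most *Saa1* had the least of it. *Mapk4*, an atypical mitogen-activated protein kinase, was 1.40 to 28.0 CPM with a median of 14.8 in the high class and 16.2 to 32.2 CPM with a median of 20.1 in the low class. *Itprid1* was 9.58 to 42.4 CPM with a median of 15.6 in the high class and 11.4 to 54.6 CPM with a median of 33.3 in the low class. Their log2 changes per doubling without dam 3 were -0.12, -0.10 and -0.24.

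*Agpat4*, which encodes an acyltransferase of phospholipid synthesis, came nearest to a call between the classes after *Ldhb*. It spanned 1.65 to 6.86 CPM with a median of 3.81 in the high class and 0.828 to 5.21 CPM with a median of 1.97 in the low class, a log2 difference of 1.11 (SE 0.25, adjusted p = 0.353, edgeR). The likelihood ratio test, DESeq2 and limma voom called it. *Scml4*, a polycomb-related gene, was 1.39 to 4.39 CPM in the high class and 0.710 to 2.42 CPM in the low class, with a log2 difference of 0.79 (SE 0.22, adjusted p = 0.863, edgeR).

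Acute-phase genes other than the serum amyloids had mostly positive differences, of which none passed between the classes. Of 26 listed, 15 were tested and 14 had a positive log2 difference, median 0.43, where 53.1% of all genes were positive and the median of all was 0.02. Without dam 3, 13 of 15 were positive and the median was 0.24. *Lrg1*, a leucine-rich glycoprotein of the acute phase, had a log2 difference of 1.46 (SE 0.54, adjusted p = 0.863, edgeR). *Orm2* had 0.999 and *Lcn2* 0.32, while *Orm1* had 0.29 and *Serpina3g* -0.54. *Crp* and *Apcs*, the pentraxins of the liver, had no counts. Along the gradient 5 of the 15 rose and 1 fell over 31 dams, where 3.22% of all genes rose and 1.01% fell, and 2 rose without dam 3, where 0.126% of all genes did.

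Hepatocyte markers were low in both classes. Of 12 hepatocyte genes, *Cyp2e1* was tested, with a log2 difference of 0.30 (SE 0.33, adjusted p = 0.918, edgeR). *Alb*, albumin, had 60 reads in all 31 libraries together and was 0 CPM in dam 3 and 0.095 CPM in dam 13, and *Ttr* and *Serpina1c* had no counts. The summed list was 5.67 to 43.7 CPM in the high class and 4.14 to 69.1 CPM in the low class.

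Markers of neutrophils were near 0 in both classes. Of 23 listed, 6 passed the filter, and *Ltf*, which the epithelium also makes, held most of the summed reads. *Ly6g* had 9 reads in all libraries together, *Mpo* 45 and *Elane* 30, while *Fpr1*, *Clec4e*, *Stfa1* and *Stfa2l1* had none. *S100a8* was 0.043 to 2.61 CPM in the high class with a median of 0.243 and 0 to 0.983 CPM with a median of 0.139 in the low class, with a log2 difference of 0.56 (SE 0.83, adjusted p = 0.936, edgeR). Of the 6 genes, 5 had positive differences with a median of 0.56, and without dam 3 it was 4 with a median of 0.24. The summed list spanned 344 to 2538 CPM in the high and 447 to 983 CPM in the low class.

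No macrophage, complement or matrix gene passed between the classes, and the medians of these lists lay near 0 without dam 3. Of 13 macrophage genes tested 10 were positive, with a median log2 difference of 0.28 and 0.01 without dam 3. The summed list was 61.3 to 317 CPM with a median of 80.8 in the high class and 58.5 to 100 CPM with a median of 78.8 in the low class. *Adgre1*, the macrophage marker F4/80, was 8.63 CPM in dam 3 and 0.199 to 2.64 CPM in the 29 dams. Of 18 complement genes 14 were positive, median 0.47, and without dam 3 11, median 0.06. All 13 fibroblast and matrix genes were positive, median 0.56, and without dam 3 12, median 0.10. Along the gradient 6 macrophage, 8 complement and 8 matrix genes rose over 31 dams, where 3.22% of all genes rose, and 0 without dam 3, where 0.126% did.

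The milk protein genes had the opposite sign. All 8 of the list (*Csn1s1*, *Csn1s2a*, *Csn1s2b*, *Csn2*, *Csn3*, *Wap*, *Lalba* and *Glycam1*) had negative differences, median -0.30, and -0.22 without dam 3. None passed between the classes. Without the 3 dams at 100 raw CPM or above the median was -0.08 and 2 of 8 were positive. *Wap*, whey acidic protein, and *Csn1s2b* each had a log2 difference of -0.49 (adjusted p = 0.863, edgeR). Along the gradient 4 fell over 31 dams, where 1.01% of all genes fell, and 1 without dam 3, where 0.0281% did. With RLE factors the median was also -0.30. The fit without the 20 most abundant genes tested 0 of these 8 genes, so it cannot check this list.

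Genes of the cell cycle had the highest positive median of the lists after the serum amyloids. Of 12 tested, 11 were positive with a median log2 difference of 1.02, and without dam 3 10 of 11 with a median of 1.06, but none passed. Without the 3 dams at 100 raw CPM or above the median was 0.56. *Top2a*, the topoisomerase of dividing cells, spanned 0.489 to 6.47 CPM with a median of 1.78 in the high class and 0.202 to 2.69 CPM with a median of 0.969 in the low class, a log2 difference of 1.04 (SE 0.40, adjusted p = 0.863, edgeR). *Mki67*, with medians of 43.5 CPM in the high and 42.6 CPM in the low class, had -0.19. In dams 3 and 13 *Top2a* was 0.489 and 1.49 CPM. Its high values lay elsewhere, at 6.47 CPM in FA diet + saline dam 3 and 4.55 CPM in FA diet + fluoxetine dam 4. The summed list was 32.6 to 111 CPM with a median of 69.8 in the high class. In the low class it was 43.5 to 81.1 CPM with a median of 65.9. The positive median of the genes thus did not go with a clear difference in the summed level. The lowest sum, 32.6 CPM, was that of FA diet + fluoxetine dam 3, which on the raw scale lay within the 29 dams.

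The other lists gave no called gene between the classes, and several of their medians depended on dam 3. Plasma cell genes had a median of -0.38 with 4 of 15 positive, and -0.41 without dam 3, with *Jchain* at 9.22 to 291 CPM in the high class and 3.76 to 256 CPM in the low class. *Jchain* was lowest in the dams numbered 10 (7.35, 3.76 and 20.2 CPM) and in FA diet + saline dam 11 (9.22 CPM). All other dams, breeder diet + saline dam 11 with 84.2 CPM among them, had 55.35 CPM or more. A link with the replicate number was not tested. Skeletal muscle genes had -1.05 with 3 of 14 positive, and -0.74 without dam 3, with summed levels of 0.944 to 8464 CPM in the high class and 2.07 to 5521 CPM in the low class.

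Positive medians shrank without dam 3 in most of the remaining lists. Iron genes went from 0.23 (6 of 8 positive) to 0.04 (4 of 8), adipocyte genes from 0.17 (9 of 12) to 0.04 (8 of 12) and MHC class II genes from 0.12 (5 of 7) to 0.01 (4 of 7). The median of NF-kB genes went from 0.16 (10 of 16) to 0.00 (8 of 16). The sign turned for genes of serotonin and PTHrP, from 0.18 (4 of 6) to -0.01 (3 of 6), for chemokines, from 0.14 (9 of 13) to -0.04 (6 of 13), and for lymphocyte genes, from 0.07 (4 of 7) to -0.07 (3 of 6). Antimicrobial genes went from 0.43 (7 of 12) to 0.21 (8 of 12), interferon-stimulated genes from 0.25 (16 of 23) to 0.17 (15 of 23) and immediate early genes from 0.25 (10 of 11) to 0.14 (9 of 11). Endothelial genes went from 0.25 (8 of 8) to 0.15 (7 of 8), involution genes from 0.15 (14 of 16) to 0.11 (12 of 16), and interleukin receptors with *Stat3* from 0.08 (7 of 9) to 0.07 (6 of 9). Calcium transport, milk fat, luminal epithelial, tight junction, lactose and myoepithelial genes had medians within 0.1 of 0 with and without dam 3.

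**Figure D4:**
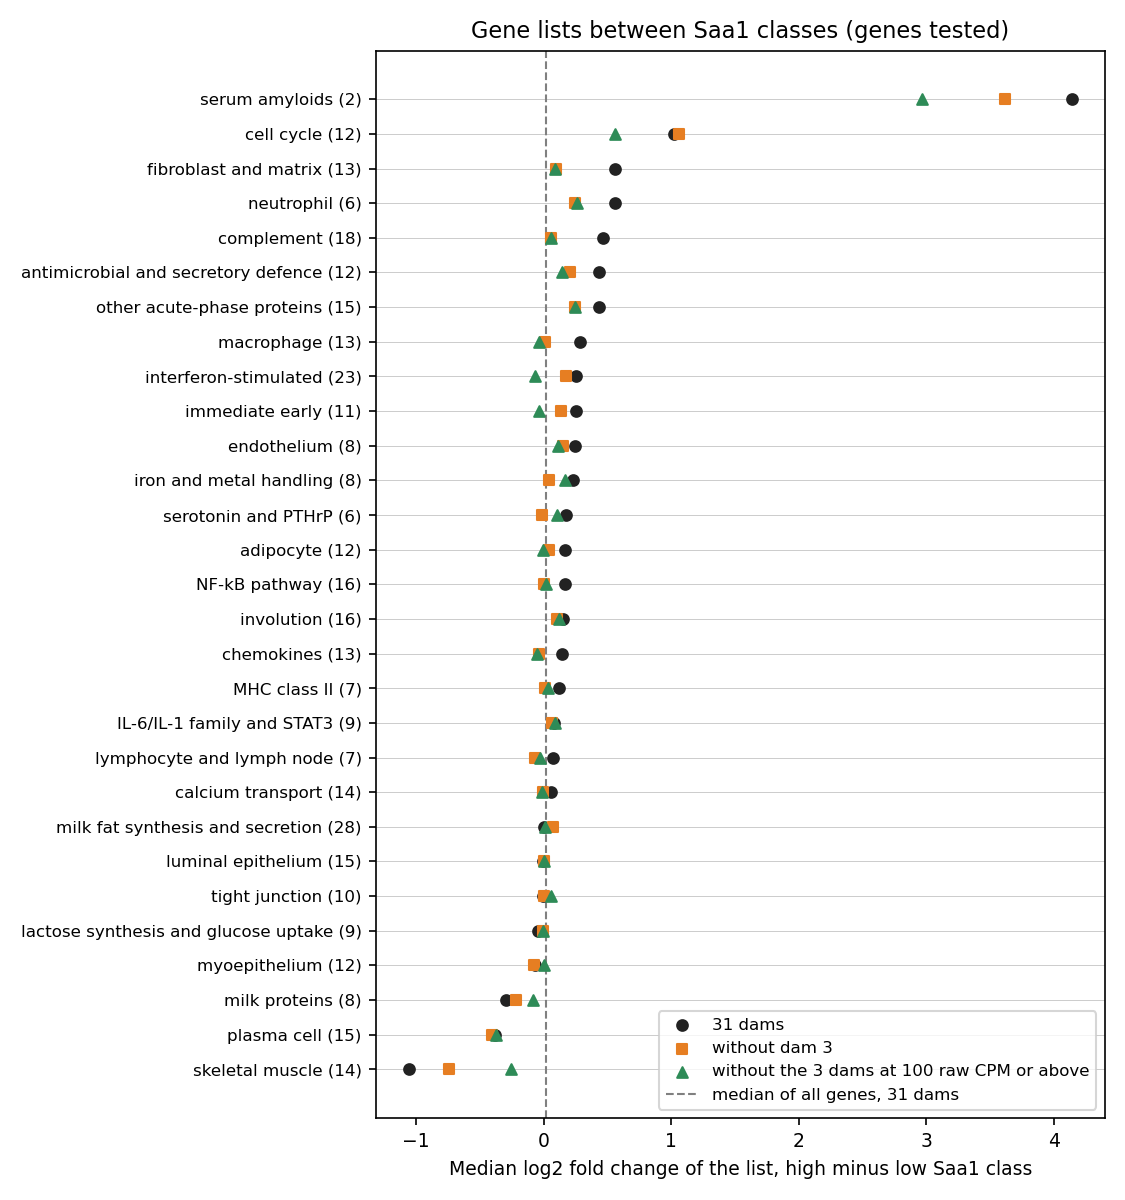
Median log2 fold change of each gene list, high minus low *Saa1* class, over 31 dams (black), without FA diet + fluoxetine dam 3 (orange) and without the 3 dams at 100 raw CPM or above (green), with the number of genes tested and a dashed line at the median of all genes. Matrix, complement and macrophage lists move from 0.56, 0.47 and 0.28 to 0.10, 0.06 and 0.01 when dam 3 is left out, while the cell cycle list stays at 1.06.

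The signal path to *Saa1* was measured as well. *Stat3* was 28.7 to 89.8 CPM with a median of 46.3 in the high class and 27.3 to 91.1 CPM with a median of 42.6 in the low class, a log2 difference of 0.14 (SE 0.19, adjusted p = 0.930, edgeR). *Socs3*, a feedback target of STAT3, had 0.37 and *Cebpb* 0.39, *Nfkb1* had 0.15 and *Nfkbia*, the NF-kB inhibitor and target, 0.21, all short of the threshold between the classes. Without dam 3 these differences were 0.07 for *Stat3*, 0.07 for *Socs3*, 0.29 for *Cebpb*, -0.02 for *Nfkb1* and 0.21 for *Nfkbia*. *Il6* had 41 reads in all 31 libraries together and had none in 29 dams, 9 of the 11 high dams among them. It was 2.11 raw CPM in dam 3 and 0.0497 raw CPM in dam 13, so that nearly all reads came from dam 3. Transcript levels of such factors do not measure their activity.

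The dams with the most *Saa1*, FA diet + fluoxetine dam 3 and breeder diet + fluoxetine dam 13, were unlike in most lists other than the serum amyloids. Their summed serum amyloids were 644 and 626 CPM, against 0.806 to 174 CPM in the 29 dams, and on the raw scale 1948 and 979 against 0.646 to 183. These sums include *Saa1*, by which the 2 dams were picked, so their high level is built in. *Saa2* was 307 CPM in dam 3 and 193 CPM in dam 13. *Saa3* was 16.8 and 50.8 CPM, and the value of dam 3 was below the 31.3 CPM of breeder diet + fluoxetine dam 2. Each is a single animal, and the following values are descriptions of those animals without a test.

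In dam 3 the milk genes were low and the macrophage and matrix lists high, while the neutrophil list (344 CPM) and the antimicrobial list were below those of all other dams after normalization. Its milk proteins summed to 58610 CPM, against 318400 in dam 13 and 487700 to 970600 CPM in the 29 dams; on the raw scale these values were 177200, 498100 and 572000 to 732600. Its milk fat list was 4948 CPM, against 17140 to 27150 CPM in the 29 dams, which on the raw scale was 14960 against 15770 to 33880. Its calcium transport list was 232 CPM against 564 to 1041, but on the raw scale it lay within the 29 dams. Macrophage genes summed to 317 CPM against 58.5 to 105, and matrix genes to 1567 against 151 to 647 CPM. *Igfbp5*, an insulin-like growth factor binding protein of the regressing gland, was 378 CPM against 2 to 29.98. *Tph1*, the first enzyme of serotonin synthesis, was 12.5 CPM against 0.240 to 1.65. *Socs3* was 17.8 CPM against 0.324 to 7.37, *Osmr*, the oncostatin M receptor, 31.7 against 1.68 to 8.81, and *Lif*, a cytokine of the interleukin-6 family, 4.74 against 0 to 0.679. The involution list, which holds *Igfbp5*, *Socs3* and *Lif*, summed to 1322 CPM in dam 3 after normalization. The normalized sum was 1259 to 2403 CPM in the low class and 1355 to 2369 CPM in the other high dams. The normalization factor of 3.04 lowers the sum of dam 3, so its place among the dams depends on the normalization.

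In dam 13 acute-phase and defence genes were high and milk fat genes were not low. Acute-phase genes other than serum amyloids summed to 3240 CPM against 590 to 1810 in the 29 dams, and 849 CPM in dam 3, which on the raw scale was also above the 29 dams with 2566 against 547 to 1624. The antimicrobial list was 8844 CPM against 3505 to 7987, and 1625 in dam 3, which on the raw scale was 4914 and within the 3685 to 7042 of the 29 dams. Its milk fat list was 28160 CPM, the highest of all dams, with *Fasn*, fatty acid synthase, at 5162 CPM against 1136 to 5441. Its macrophage list (100 CPM) and its matrix list (361 CPM) lay within the range of the 29 dams after normalization, and above it on the raw scale with 156 and 565 against at most 112 and 491. *Socs3* was 1.27, *Igfbp5* 5.25 and *Tph1* 0.572 CPM, again within that range. *Chi3l1*, a chitinase-like glycoprotein, was high in both, with 23.8 CPM in dam 3 and 11.8 in dam 13 against 0 to 3.03.

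**Figure D5:**
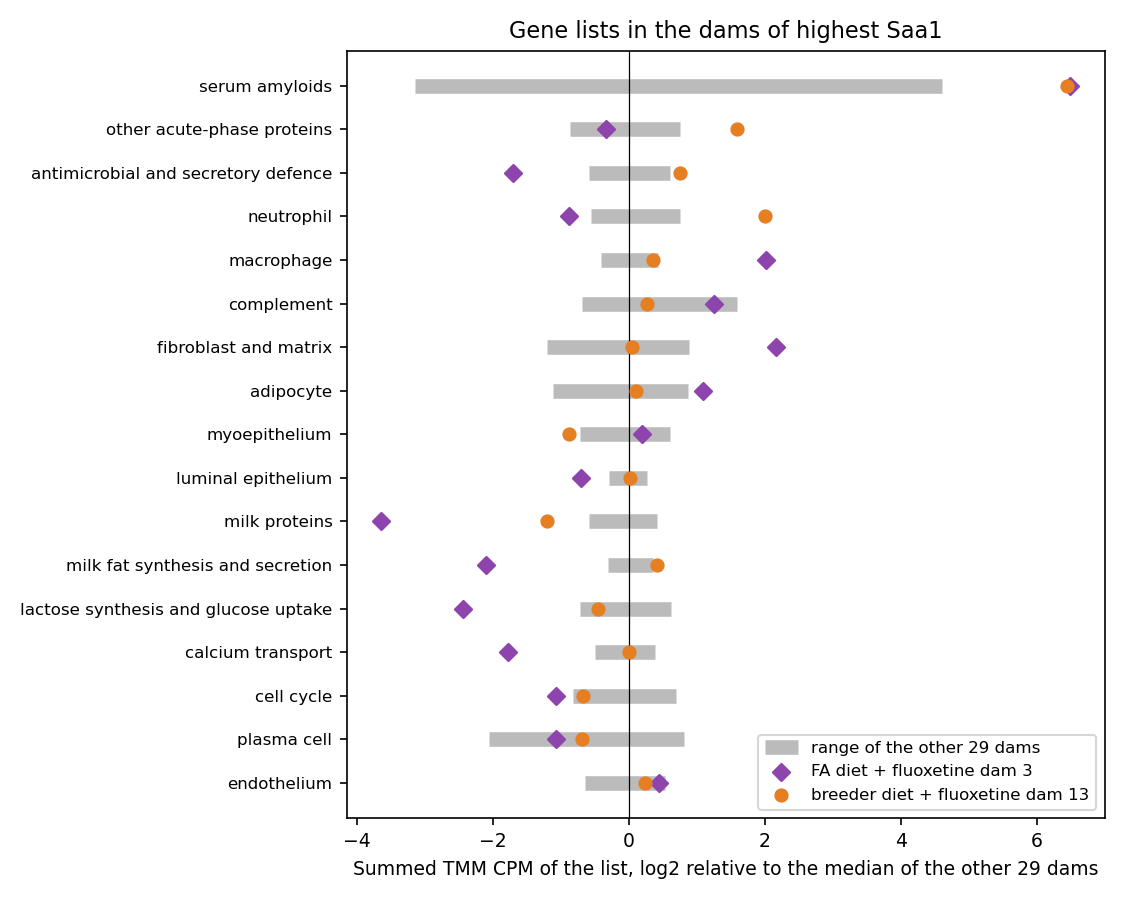
Summed normalized CPM of 17 gene lists in FA diet + fluoxetine dam 3 (purple) and breeder diet + fluoxetine dam 13 (orange), as log2 relative to the median of the other 29 dams, whose range is grey. Serum amyloids are at 644 and 626 CPM in these dams, a sum that includes *Saa1*, by which they were picked. Matrix genes are at 1567 and 361 CPM and milk proteins at 58610 and 318400 CPM.

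Whether the class difference itself depended on the drug was tested with an interaction term, and 0 of 14361 genes passed in edgeR's quasi-likelihood test, with 445 at an unadjusted p under 0.05. Only 3 saline dams were high, which limits this test. Within the 15 fluoxetine dams 0 genes were called and within the 16 saline dams 0, with 755 and 327 at an unadjusted p under 0.05. The direction of the 3 called genes was the same in both, which is largely built in, since the calls came from these dams pooled. *Saa2* had log2 differences of 6.74 in fluoxetine and 4.34 in saline dams, *Spp1* 3.13 and 3.93, and *Ldhb* 1.02 and 0.51.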

How the data were processed

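The authors extracted RNA (RNeasy Micro Kit) from whole frozen mammary gland and had polyadenylated RNA sequenced on an Illumina NovaSeq. Per the submitters' processing notes, FastQC 0.11.7, Trim Galore 0.4.4, HISAT2 and HTSeq were used on GRCm39. The annotation release and the strand option are not given in the sources used here. The deposited files hold the raw read counts per gene made by the authors, 1 file per dam, with 55379 genes, of which 667 identifiers had no symbol in the reference annotation. Totals of 15412542 to 36000439 counts set the precision of low genes.

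Classes were set from raw *Saa1* CPM with a limit of 10. The members, lists and tests were chosen with earlier results of these data known. Genes were filtered with filterByExpr by diet and drug group, which removed 41017 and left 14362, of which 14361 were tested after *Saa1* was taken out. TMM normalization and the robust quasi-likelihood test of edgeR 4.0.16 in R 4.3.3 used group and class as terms, with a Benjamini-Hochberg FDR of 10%. The common dispersion was 0.167 and the residual degrees of freedom were 26. Each SE beside an edgeR result is the absolute log2 fold change divided by the square root of the test's F statistic. It was derived from the test and does not measure the spread among dams. DESeq2 1.42.0 and limma 3.58.1 were alternatives, and the fit was tested on simulated data. Within each diet and drug group, no pair of libraries had counts that agreed within sampling noise. Pairs across groups were not compared in this way. The labels give 1 dam per library. The methods of the study give the sizes of the 2 fluoxetine groups the other way round, and the labels were followed.

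The gradient replaced the class by log2 of raw *Saa1* CPM plus 0.5. Genes named were the 12 called of smallest p in each direction, up to 4 called members of each list in each direction or else its first 2 tested, and the serum amyloids. All others were chosen after their values were seen, including the genes named only in the 2 dams of highest *Saa1*, *Lrg1*, *Serpina3g*, *Wap*, *Cebpb*, *Nfkbia* and those called along the gradient.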

Additional observations from a re-analysis of the deposited data

Results flagged for a closer look

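Within diet and drug groups, 76 checks of single genes for a dam far from the rest of its group gave 16 flags. Chance gives about 1 in 20, but most of these genes were picked from the gradient after their values were seen, so the number of flags is no evidence of an excess. Breeder diet + fluoxetine dam 13 stood apart with 2530 CPM of *Ltf* against a group median of 696.9, 72.97 of *Rnase1* against 1.613, 505.9 of *Wfdc17* against 13.88, 31.48 of *Sbsn* against 1.613, 90.26 of *Ly6a* against 17.96 and 20410 of *Csn1s2b* against 52260. FA diet + fluoxetine dam 3 stood apart with 9.525 CPM of *Sbsn* against 1.394, 3364 of *Csn1s2b* against 49130 and 1.398 of *Mapk4* against 15.43. FA diet + saline dam 3, the third in *Saa1*, had 31640 CPM of *Csn1s2b* against 71430.

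The other 6 flags were in dams of the low class. FA diet + fluoxetine dam 5 had 0.327 CPM of *Saa3* against a group median of 5.257, and FA diet + fluoxetine dam 10 had 48.02 CPM of *Wfdc17* against 14.35. Breeder diet + saline dam 3 had 0.05547 CPM of *Saa3* against 1.71 and 11.43 of *Itprid1* against 31.48. Breeder diet + saline dam 10 had 0.1761 CPM of *Rnase1* against 0.8474, and FA diet + saline dam 12 had 12.97 CPM of *Ly6a* against 25.05.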

How the results depend on the processing

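The count of 3 genes higher in high-*Saa1* dams became 0 with a limit of 20 raw CPM, in fluoxetine dams only, in saline dams only and with a replicate block, 10 without diet and drug groups, 5 with the likelihood ratio test, 1 without the dams at 100 raw CPM or above, and 463 along the gradient. Leaving out 1 dam at a time gave 1 to 3 higher and 0 to 1 lower, with 1 higher without FA diet + saline dam 3 and 1 lower, *Itprid1*, without breeder diet + saline dam 6. Along the gradient, where 145 fell, leaving out 1 dam gave 18 to 617 higher and 4 to 181 lower, the lowest without FA diet + fluoxetine dam 3 and 617 without breeder diet + fluoxetine dam 13. The count of lower genes was 87 without FA diet + fluoxetine dam 5 and 89 without dam 10. Without dams 3 and 13 the counts were 3 and 0. The cause was not tested.

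Calls lost kept their direction, which is partly built in, since these fits share dams with the fit that gave the calls. *Saa2* had log2 differences of 5.94 with the limit of 20, 6.74 in fluoxetine dams, 4.34 in saline dams and 3.90 with the replicate block. *Spp1* had 2.91, 3.13, 3.93 and 2.15 in the same order, 1.95 without the dams at 100 raw CPM or above, and 2.82 to 3.84 with 1 dam left out. *Ldhb* had 0.73, 1.02, 0.51 and 0.50, 0.63 without those dams, 0.67 with a limit of 5, 0.65 without groups, 0.64 with limma voom, 0.82 without robust estimation, and 0.70 to 0.96 with 1 dam left out. Over the fits of single genes, 2852 values kept their direction and side of the threshold, 18 passed it newly and 43 no longer did. Nothing in the labels says that replicate numbers pair the dams. Deviations of 28 same-numbered pairs correlated at a median of 0.079 (-0.22 to 0.43), with 12 over 0.1. Among 332 other pairs the median was -0.007 (-0.41 to 0.43), with 74 over 0.1. The same-numbered pairs thus leaned higher, and whether a replicate number marks something shared by its dams was not tested. The dams were not treated as paired in the main fit. With the replicate block, which left 14 residual degrees of freedom, 0 genes were called. Low counts limit *Saa3*, *S100a8* and the neutrophil and hepatocyte lists.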
